A study of Arabidopsis thaliana with 8 samples.

Results

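Genes named for cell division, histones and chromosomes were followed through the flowering stem of Arabidopsis thaliana. Members were the probe sets that the array annotation gives to exactly 1 gene whose symbol begins with one of 22 stems, among them AUR (Aurora kinases), HTB and HTR (histones H2B and H3), BUB (spindle checkpoint) and RAD (DNA repair). The rule found 16 genes, each with 1 probe set, among 13350 genes on the 13513 probe sets with exactly 1 gene. Of the 22 stems 6 had a member and 16 had none in the annotation used here, those of the cyclins, CDKs, KRP and SMR inhibitors, E2F, MCM, ORC and PCNA among them, so the genes of those stems are not described under their own names. The 16 members were 4 H2B genes (HTB1, HTB2, HTB4 and HTB11), the centromeric H3 gene HTR12, the 3 Aurora kinase genes, BUB3.1, BUB3.2, BUBR1, CDC27a, RAD4, RAD5, RAD9 and RAD51B. For 3 of them, RAD5, CDC27a and BUBR1, the mean signal lay below the limit for testing, which left 13 tested.

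RNA was taken from the stem base and the stem tip of the cov mutant and of the wild type Ler-0 and hybridised to 8 arrays. Each of the 4 groups (cov base, cov tip, wild type base and wild type tip) held 2 arrays. All plants, per the labels, were at growth stage 6.10 on compost with an insecticide treatment, under continuous light at 22 °C and 65% humidity. The mutation lies in COV1, a membrane protein gene that acts in the spacing of vascular tissue, and the series asks what this gene does in vascular patterning. COV1 had 0 named probe sets, so the genotype labels were not checked against it. The labels do not give the background of the cov allele, so effects of COV1 and of background cannot be told apart.

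Cells divide in and just below the shoot apex, and they leave the cell cycle as the stem elongates and matures, apart from cells such as those of the cambium. Histone H2B is made mostly during DNA replication and packs the new DNA together with the other core histones. Aurora kinases, the BUB proteins and CDC27, a subunit of the anaphase promoting complex, act at the spindle, the centromeres and the exit from mitosis. The RAD proteins recognise or repair damaged DNA and are also used by cells that do not divide.

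The values are MAS5 signals, a linear measure of brightness for each probe set, which do not order different genes by abundance. The median signal ran from 41.4 to 50.1 over the 8 arrays, and replicate arrays correlated at r = 0.959 to 0.978 over the 15923 tested probe sets (probe sets are not replicates). The lowest median was that of wild type base array 1. As a check of the labelled stem parts, the xylan gene IRX15, which serves the secondary wall, had signals of 260.2 and 384.6 at cov bases against 31.1 and 23.6 at cov tips, and of 829.5 and 646.8 at wild type bases against 20.8 and 19.9 at wild type tips. A gene named for its role in flower tissue was higher at the tips. EMS1, a receptor kinase gene of the young anther, had 32.7 and 24 at cov bases against 136.3 and 117.8 at cov tips, and 27.9 and 30.4 at wild type bases against 112.7 and 136.8 at wild type tips.

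Stem base and stem tip were compared within each genotype first. In both genotypes, genes for H2B, the Aurora kinases AUR1 and AUR3 and the BUB protein BUB3.1 had lower signal at the base. In cov, 7 of the 13 tested members fell at the base, 0 rose and 6 were not called. Of all tested probe sets 31.3% were called there, 15.8% lower and 15.4% higher at the base. In wild type, 8 of 13 members fell, 1 rose and 4 were not called, where 46.4% of all tested probe sets were called, 24.4% lower and 22.0% higher. A call means an adjusted p under 0.05 in limma, with Benjamini-Hochberg adjustment over all tested probe sets. The median log2 difference of the tested members was -0.89 in cov and -1.16 in wild type, against 0.00 and -0.01 over all tested probe sets. Of the 13 tested members, 10 had both base arrays below both tip arrays in cov and 10 in wild type. Of all tested probe sets 34.9% and 36.3% did so. The 3 dim members enter neither these counts nor these shares. In whole tissue, fewer dividing cells and less RNA per cell cannot be told apart.

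**Figure D1:**
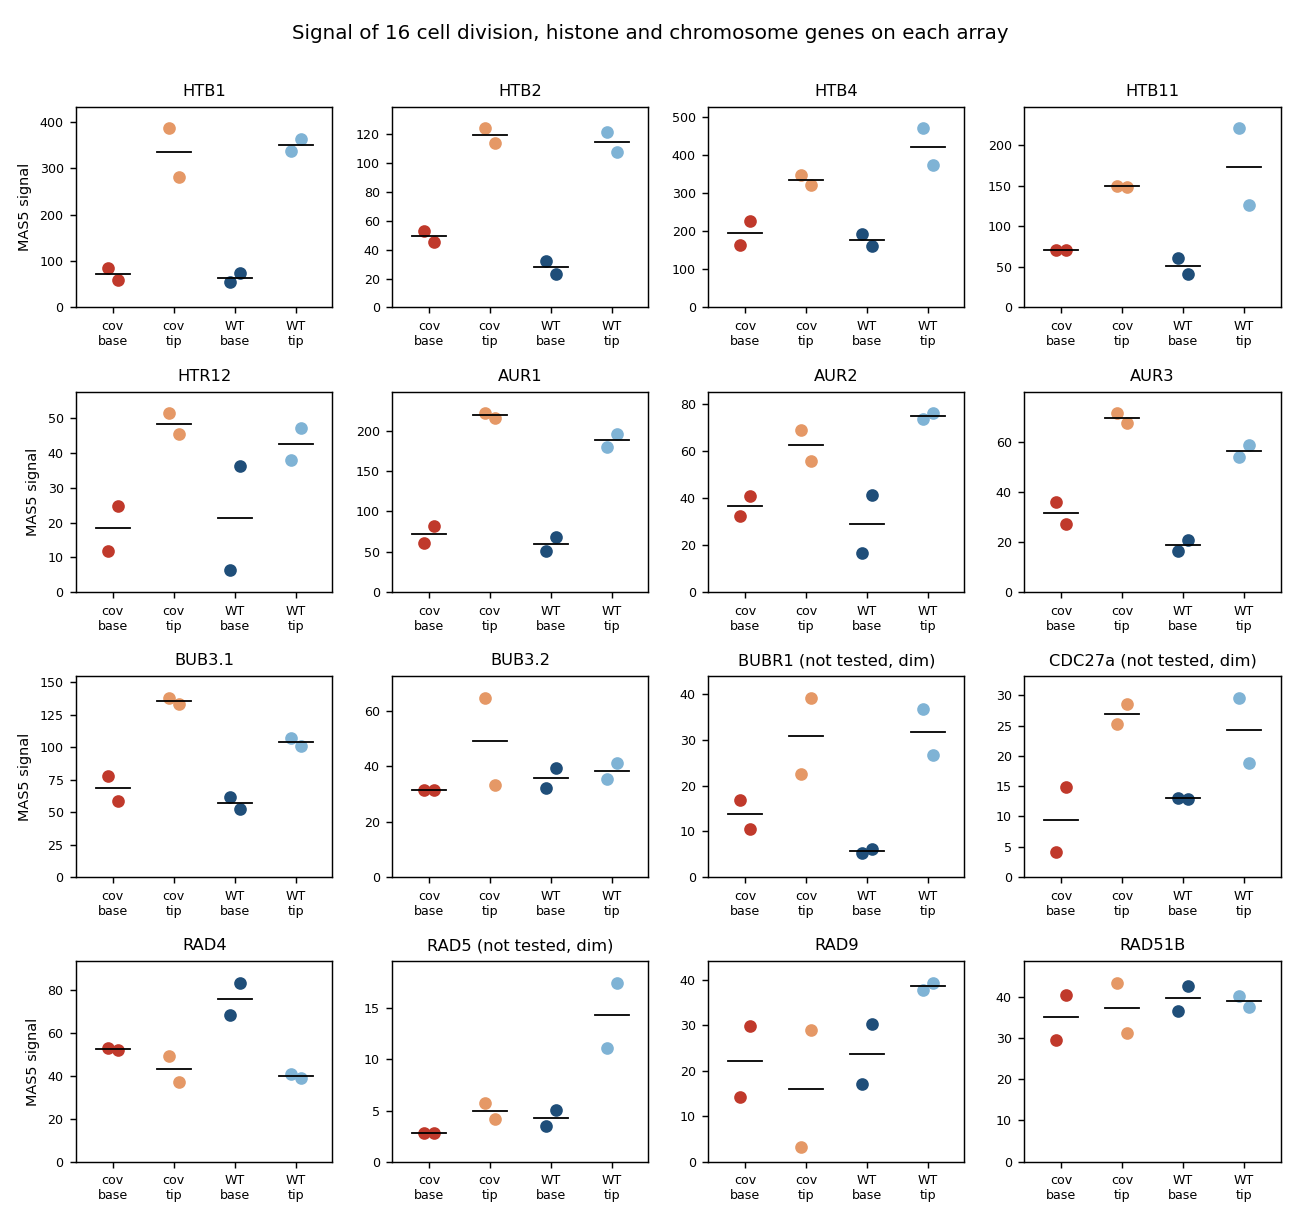
MAS5 signal (linear, each panel with its own axis from 0) of the 16 members on each array. Points are the 2 arrays of a group and black lines their mean, in the order cov base, cov tip, wild type base and wild type tip. For the 4 H2B genes and the 3 Aurora genes every base array lies below every tip array of the same genotype.

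HTB1 showed the steepest gradient among the tested members in both genotypes. In cov its signal was 86.1 and 58.8 at the base, against 386.1 and 282.2 at the tip. In wild type it was 55.4 and 73.8 at the base, against 337 and 363.7 at the tip. The base and tip arrays did not overlap in either genotype. By limma HTB1 was 4.11-fold lower at the base in cov (95% limits 2.96 to 5.71, adjusted p = 5.39e-05, n = 2 arrays per group) and 4.77-fold lower in wild type (3.44 to 6.62, adjusted p = 1.06e-05). These folds, like all those below, are on a scale of log2 of the signal plus 11.85, which understates changes at low signal. Of all tested probe sets 1.87% had a lower log2 difference than HTB1 in cov and 3.07% in wild type.

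HTB2 had 53.1 and 45 at cov bases, against 123.8 and 113.9 at cov tips. In wild type it had 32.3 and 23.2 at the base, against 121.3 and 107.3 at the tip. The tips of both genotypes covered much the same range, and the bases of cov lay above those of wild type. HTB2 was 2.15-fold lower at the base in cov (1.61 to 2.87, adjusted p = 0.00129) and 3.2-fold lower in wild type (2.4 to 4.28, adjusted p = 3.63e-05).

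HTB11 had 70.2 and 71.3 at cov bases, against 149.5 and 148.5 at cov tips. Wild type bases had 61.2 and 41.3, against 220.5 and 126.2 at wild type tips, so the wild type arrays were spread more widely than the cov arrays in both parts. The log2 difference of HTB11 was -0.96 ± 0.24 (SE) in cov (adjusted p = 0.0119) and -1.52 ± 0.24 in wild type (adjusted p = 0.000439). HTB4 had 162.5 and 225.8 at cov bases, against 348 and 321.2 at cov tips. Its signal was 193 and 161.2 at wild type bases, against 469.2 and 373.6 at wild type tips. HTB4 was 1.70-fold lower at the base in cov (1.27 to 2.27, adjusted p = 0.0103) and 2.29-fold lower in wild type (1.71 to 3.06, adjusted p = 0.000399). Base and tip did not overlap for either gene. Genes for H2B are close in sequence, and whether a probe set also reads a relative was not tested.

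HTR12 encodes CENH3, the histone H3 that marks centromeres. It had 11.8 and 24.9 at cov bases, against 51.5 and 45.4 at cov tips, and 6.3 and 36.4 at wild type bases, against 37.9 and 47.3 at wild type tips. The base arrays lay below the tip arrays, but the 2 wild type bases differed widely. HTR12 was not called, with log2 differences of -1.03 ± 0.40 in cov (adjusted p = 0.0758) and -0.87 ± 0.40 in wild type (adjusted p = 0.0999). In wild type it was called lower when the second base array, the higher of the pair, was omitted. The adjusted p in cov was 0.015 when the first wild type base array was omitted and 0.0171 when the second was, although neither array enters the cov values.

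Aurora kinases phosphorylate proteins of chromosomes and the spindle. AUR1, which acts at the spindle and the forming cell plate, had 61.5 and 82.2 at cov bases, against 221.8 and 216.1 at cov tips. Wild type bases had 50.9 and 68.3, against 180 and 196 at wild type tips. The 4 base arrays lay far below the 4 tip arrays. AUR1 was 2.78-fold lower at the base in cov (2.09 to 3.69, adjusted p = 0.000177) and 2.82-fold lower in wild type (2.12 to 3.74, adjusted p = 7.41e-05), and both gradients were of nearly equal size.

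AUR3, which acts at centromeres and on histone H3, had 36 and 27.3 at cov bases, against 71.4 and 67.5 at cov tips. Its wild type signals were 16.4 and 20.9 at the base, against 54 and 58.6 at the tip. AUR3 fell by 0.91 ± 0.21 on the log2 scale at the cov base (adjusted p = 0.00677) and by 1.16 ± 0.21 at the wild type base (adjusted p = 0.000907). AUR2, the close relative of AUR1, had 32.4 and 40.8 at cov bases, against 68.8 and 55.7 at cov tips, and 16.5 and 41.1 at wild type bases, against 73.3 and 76 at wild type tips. It fell in wild type, by 1.16 ± 0.28 (adjusted p = 0.00561). Its log2 difference in cov was -0.61 ± 0.28 (adjusted p = 0.123). Omitting the lower of the wild type base arrays left a difference of -0.71 for AUR2 in wild type (adjusted p = 0.04). A call for AUR2 in wild type and none in cov does not show that the genotypes differ, and the test of that difference gave 0.55 ± 0.39 (adjusted p = 0.578).

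BUB3.1 is named for a protein of the spindle checkpoint, which holds mitosis until chromosomes are attached. It had 77.7 and 58.8 at cov bases, against 137.9 and 133.3 at cov tips, and 61.6 and 52.7 at wild type bases, against 107.1 and 101.2 at wild type tips. BUB3.1 was 1.85-fold lower at the base in cov (1.41 to 2.44, adjusted p = 0.00329) and 1.68-fold lower in wild type (1.28 to 2.21, adjusted p = 0.00529). Its relative BUB3.2 had 31.4 and 31.4 at cov bases, against 64.7 and 33.4 at cov tips, so that 1 array made the difference of the means. In wild type BUB3.2 had 32.1 and 39.3 at the base, against 35.3 and 41 at the tip, and these overlapped. BUB3.2 was not called, at -0.44 ± 0.26 in cov (adjusted p = 0.233) and -0.07 ± 0.26 in wild type (adjusted p = 0.842).

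Some calls in cov were lost when 1 array was left out. Without cov tip array 1 the count of members called in cov was 4 in place of 7, with HTB1, HTB2, AUR1 and BUB3.1 called, and HTB11 (adjusted p = 0.0678), HTB4 (0.0801) and AUR3 (0.0643) were not. HTB11 also lost its call without cov tip array 2 (0.0609) or cov base array 1 (0.0506), and HTB4 without cov base array 1 (0.0878). The log2 differences of HTB11 stayed between -0.97 and -0.95 in these fits and that of AUR3 was -0.87, whereas HTB4 had -0.71 without cov tip array 1 and -0.54 without cov base array 1. With cov tip array 1 left out, the share of all tested probe sets called in cov was 18.0%, against 31.3%. In wild type the 8 lowered members kept their calls when any 1 array was left out.

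**Figure D2:**
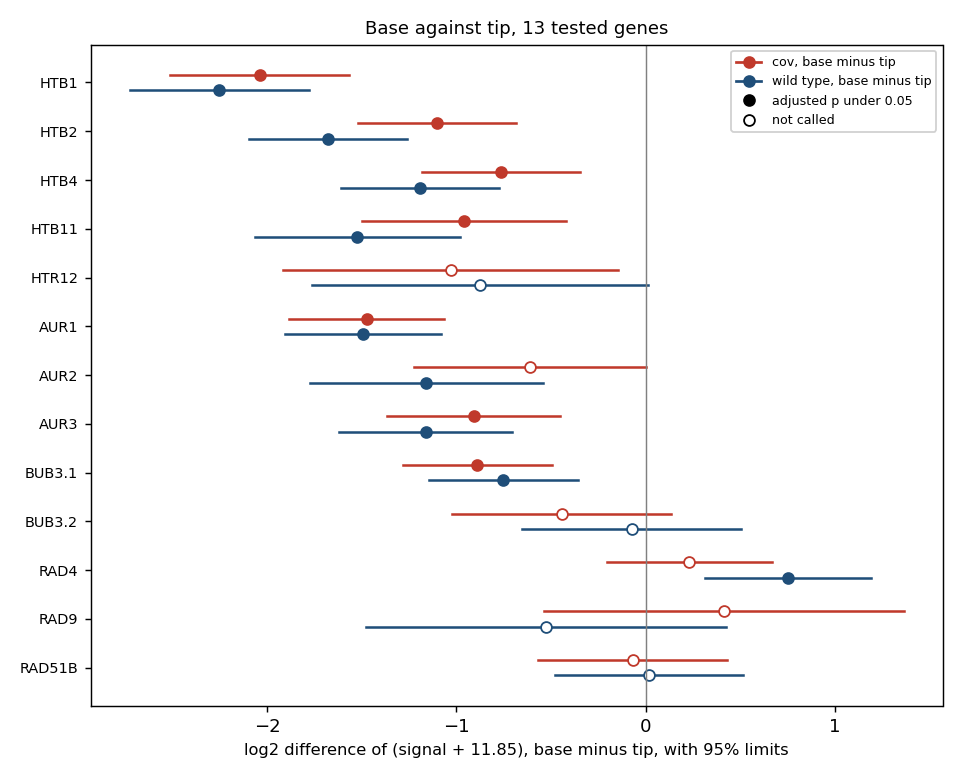
Log2 difference of the signal plus 11.85, base minus tip, for the 13 tested members in cov (red) and wild type (blue), with 95% limits from limma. Filled points are called. All 4 H2B genes are called in both genotypes, and RAD4 in wild type is the 1 filled point above 0.

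None of the 3 tested repair genes was called lower at the base. RAD4, the relative of a yeast protein that recognises damage for nucleotide excision repair, had 53.2 and 52.1 at cov bases, against 49.6 and 37.3 at cov tips. In wild type it had 68.5 and 83.7 at the base, against 41.2 and 39.2 at the tip. RAD4 rose 1.68-fold at the wild type base (1.24 to 2.28, adjusted p = 0.00941), and this call was lost (adjusted p = 0.0596) when the second wild type base array was omitted. RAD4 was also the 1 member with both base arrays above both tip arrays, in each genotype, as were 34.1% of all tested probe sets in each. In cov its log2 difference was 0.23 ± 0.20 (adjusted p = 0.423), and the difference between the genotypes was -0.52 ± 0.28 (adjusted p = 0.431).

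RAD51B, which acts in DNA repair, had 29.6 and 40.3 at cov bases, against 43.4 and 31.2 at cov tips. Wild type had 36.5 and 42.6 at the base, against 40.2 and 37.6 at the tip. The arrays overlapped in both genotypes, and the log2 differences were -0.07 (95% limits -0.57 to 0.43) in cov and 0.02 (-0.48 to 0.51) in wild type, with adjusted p of 0.855 and 0.961. RAD9, part of a clamp that signals DNA damage, had 14.3 and 29.9 at cov bases, against 3.2 and 29 at cov tips, and 17.2 and 30.3 at wild type bases, against 37.7 and 39.4 at wild type tips. The arrays of RAD9 overlapped in cov, and in wild type both base arrays lay below both tip arrays. Replicates of RAD9 differed by several fold in 1 group, and neither gradient was called (adjusted p of 0.517 in cov and 0.351 in wild type).

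The 3 dim members had mean signals below the limit over the 8 arrays, although BUBR1 and CDC27a passed it on most tip arrays. BUBR1, a checkpoint protein of the kinetochore, had 16.8 and 10.6 at cov bases, against 22.6 and 39.2 at cov tips, and 5.2 and 6.1 at wild type bases, against 36.8 and 26.6 at wild type tips. CDC27a had 4.2 and 14.8 at cov bases, against 25.3 and 28.6 at cov tips. Its wild type signals were 13.1 and 12.9 at the base, against 29.6 and 18.9 at the tip. RAD5, a gene for repair behind the replication fork, ran from 2.8 to 17.5 over the 8 arrays. All 3 had both base arrays below both tip arrays in each genotype, and the share of all dim probe sets that did so was not computed. For RAD5 in cov this rests on 2.8 and 2.8 at the base against 5.7 and 4.2 at the tip, far below the limit. When no probe set was left out as dim, all 16 members were tested. Of the 22746 probe sets then tested 20.56% were called in cov (2459 lower) and 32.75% in wild type (3975 lower). In cov 7 were then called, all lower, and in wild type 11, with BUBR1 (log2 difference -1.31 ± 0.27, adjusted p = 0.00614) and RAD5 (-0.69 ± 0.17, adjusted p = 0.0133) added to the lower ones.

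**Figure D3:**
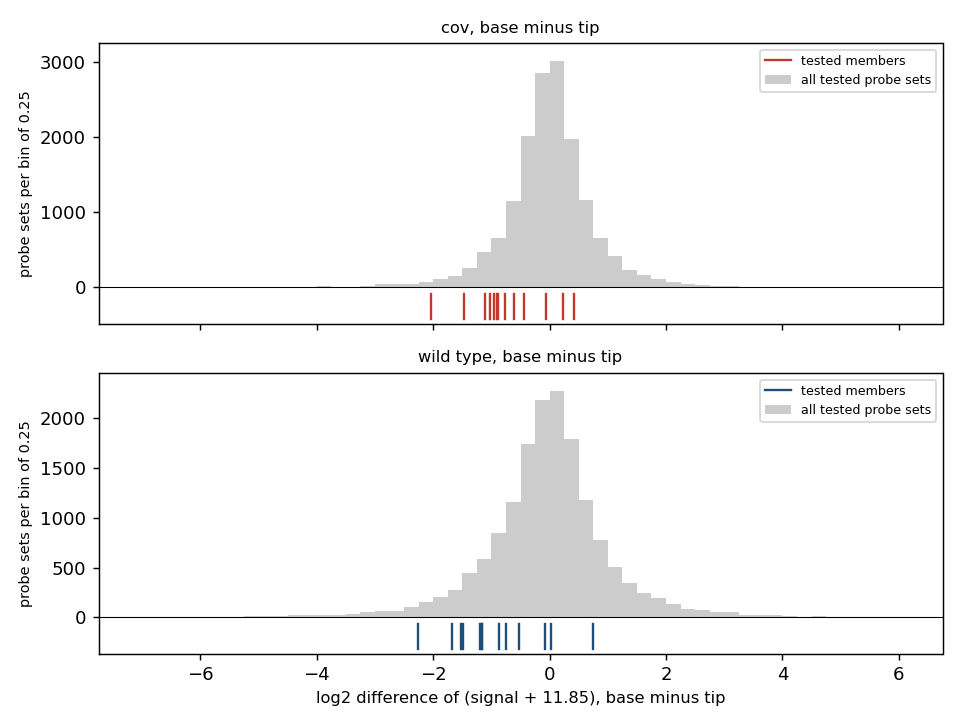
Log2 difference of the signal plus 11.85, base minus tip, in cov (upper) and wild type (lower). Grey bars count all 15923 tested probe sets in bins of 0.25, and coloured ticks under the axis mark the 13 tested members, whose medians are -0.89 in cov and -1.16 in wild type.

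The cov mutant was then compared with wild type in each part of the stem, to see whether division genes differed between the genotypes. None of the 13 tested members was called at the tip, at the base, or in the difference of the gradients by limma. Of all tested probe sets 1.82% were called at the tip, 5.53% at the base and 2.15% in the difference of the gradients. At an unadjusted p under 0.05 there was 1 member at the tip (RAD9), 3 at the base (HTB2, AUR3 and RAD4) and 0 in the difference, and 1711, 3049 and 2377 of all tested probe sets. The median log2 difference of the members was 0.05 at the tip and 0.13 at the base, against 0.01 and 0.02 over all tested probe sets.

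At the base, HTB2 had 53.1 and 45 in cov against 32.3 and 23.2 in wild type. The groups did not overlap, and the log2 difference was 0.63 (95% limits 0.21 to 1.05, adjusted p = 0.0879). AUR3 had 36 and 27.3 in cov bases against 16.4 and 20.9 in wild type bases, a log2 difference of 0.51 (0.05 to 0.97, adjusted p = 0.209). HTB11 likewise had both cov bases above both wild type bases, at 0.41 ± 0.24 (adjusted p = 0.417). These 3 of 13 tested members stand beside 25.3% of all tested probe sets with both cov bases above both wild type bases. RAD4 lay lower in both cov bases, at -0.44 ± 0.20 (adjusted p = 0.255), as did BUB3.2, at -0.13 ± 0.26 (adjusted p = 0.852), and so did 21.1% of all tested probe sets. The other tested members overlapped between the genotypes at the base, and of the dim ones BUBR1 lay higher and RAD5 lower in both cov bases.

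Between the genotypes the H2B genes differed by small amounts at the tip. Their log2 differences there were -0.08 for HTB1 (95% limits -0.56 to 0.39), 0.05 for HTB2 (-0.37 to 0.47), -0.31 for HTB4 (-0.73 to 0.10) and -0.16 for HTB11 (-0.69 to 0.38). All 4 were above 0 at the base, where HTB1 had 0.13 (-0.34 to 0.61) and HTB4 0.11 (-0.30 to 0.53). For all 4 the base value was nearer to the tip value in cov than in wild type, with differences of the gradients of 0.21 ± 0.30 for HTB1, 0.58 ± 0.27 for HTB2, 0.43 ± 0.27 for HTB4 and 0.56 ± 0.35 for HTB11. Of all 15923 tested probe sets, 8399 were above 0 at the base and 8197 in the difference of the gradients. The values of the 4 genes rest on the same arrays, so they do not count as separate observations. None of the 4 passed the limma test of the gradient difference, with adjusted p of 0.804, 0.352, 0.511 and 0.502. A call is absent here, and the 95% limits of the gradient differences still allow either direction. They were -0.46 to 0.88 for HTB1, -0.02 to 1.17 for HTB2, -0.16 to 1.02 for HTB4 and -0.20 to 1.33 for HTB11.

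Among the mitotic genes, AUR1, AUR3 and BUB3.1 had both cov tips above both wild type tips. Their log2 differences at the tip were 0.21 (-0.20 to 0.62, adjusted p = 0.785), 0.25 (-0.20 to 0.71, adjusted p = 0.76) and 0.35 (-0.05 to 0.74, adjusted p = 0.55). Both cov tips lay below both wild type tips for HTB4, AUR2 and RAD9. AUR2 had -0.23 (-0.84 to 0.39, adjusted p = 0.865). RAD9 had -1.02 (-1.97 to -0.07, adjusted p = 0.411), which was -0.30 without cov tip array 1, the array with a signal of 3.2, and -1.74 without cov tip array 2. Beside these 3 higher and 3 lower members of 13 stand 22.8% and 20.1% of all tested probe sets without overlap in those directions. Of the dim members RAD5 lay lower in both cov tips, with 5.7 and 4.2 against 11.1 and 17.5 in wild type. When no probe set was left out as dim, its log2 difference was -0.63 ± 0.17 by limma (adjusted p = 0.192). HTR12 differed by 0.15 ± 0.40 at the tip and -0.01 ± 0.40 at the base, and its limits were wide in both parts.

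**Figure D4:**
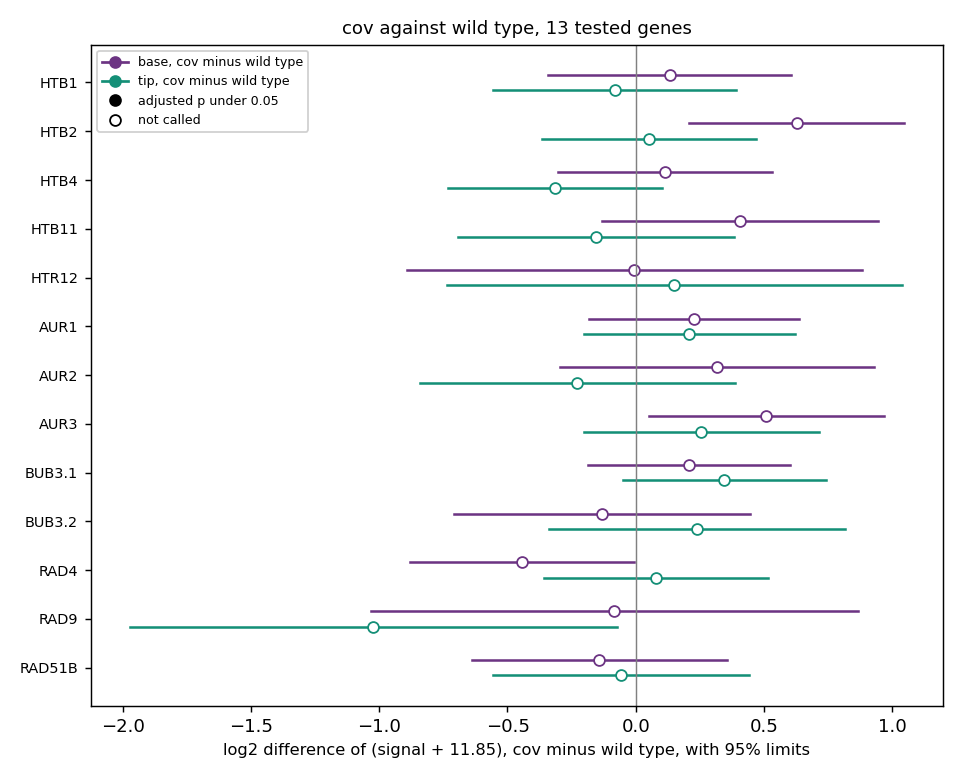
Log2 difference of the signal plus 11.85, cov minus wild type, for the 13 tested members at the base (purple) and the tip (green), with 95% limits from limma. All points are open, since none was called, and the limits of HTB2, AUR3 and, narrowly, RAD4 at the base and of RAD9 at the tip do not reach 0.

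Other genes of the pathway came from lists of symbols. Few had a named probe set, and all counts are for those. Of the 4 genes for DNA replication 3 fell at the cov base and 4 at the wild type base, 0 rose, and 1 was not called in cov. Of all tested probe sets 15.8% fell in cov and 24.4% in wild type. The median log2 difference was -0.96 in cov and -1.17 in wild type. TOPII, a topoisomerase that untangles replicated DNA, had 18.7 and 13.1 at cov bases, against 109.9 and 70.8 at cov tips, and 11.8 and 5.4 at wild type bases, against 115.6 and 63.6 at wild type tips. It was 3.63-fold lower at the base in cov (adjusted p = 0.001) and 4.86-fold lower in wild type (adjusted p = 0.000128). POLA3, a primase subunit, was 2.29-fold lower in cov (adjusted p = 0.00282) and 2.37-fold lower in wild type (adjusted p = 0.00127), and POLD3, of DNA polymerase delta, 1.60-fold (adjusted p = 0.036) and 2.13-fold lower (adjusted p = 0.00188). The DNA polymerase alpha gene ICU2 was called in wild type, at -0.97 (adjusted p = 0.0144), and not in cov, at -0.73 (adjusted p = 0.0688). PRL, the MCM7 subunit of the replicative helicase, is named without the MCM stem and so was no member. It fell by 0.95 ± 0.17 at the cov base (adjusted p = 0.00177) and by 1.14 ± 0.17 at the wild type base (adjusted p = 0.000267).

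At the base 15.8% of all tested probe sets fell in cov and 24.4% in wild type. Of 3 genes for histone chaperones and linker proteins, 1 fell in each genotype and 2 were not called in either. This was ASF1B, a chaperone that hands over H3 and H4, with 7.6 and 2.9 at cov bases, against 55.7 and 34.7 at cov tips, and 5.5 and 11.9 at wild type bases, against 68.8 and 57 at wild type tips. It was 3.31-fold lower at the base in cov (adjusted p = 0.00119) and 3.67-fold lower in wild type (adjusted p = 0.000361). Its relative SGA2 had log2 differences of -0.14 in cov (adjusted p = 0.585) and -0.10 in wild type (adjusted p = 0.66), and the linker protein gene HON4 had -0.18 (adjusted p = 0.533) and -0.23 (adjusted p = 0.379). Of the 2 genes of the anaphase promoting complex, SAMBA fell in both genotypes, at -0.59 in cov (adjusted p = 0.04997) and -0.66 in wild type (adjusted p = 0.0218). HBT, the second CDC27 gene of Arabidopsis, fell in wild type, at -0.47 (adjusted p = 0.0401), and had -0.38 in cov (adjusted p = 0.117).

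Some of the listed genes ran the other way. Of 3 cell cycle regulators, 1 rose and 1 fell at the cov base, and 1 rose and 2 fell at the wild type base. Of all tested probe sets 15.4% rose and 15.8% fell in cov, and 22.0% rose and 24.4% fell in wild type. SIM, an inhibitor of cyclin-dependent kinases that promotes endoreduplication, had 211.8 and 270.8 at cov bases, against 100.6 and 146.5 at cov tips, and 388.9 and 307.3 at wild type bases, against 210.2 and 152.5 at wild type tips. It rose 1.88-fold in cov (adjusted p = 0.00974) and 1.87-fold in wild type (adjusted p = 0.00656). TSO1, a regulator of division in meristems and flowers, fell by 0.92 ± 0.20 at the cov base (adjusted p = 0.00547) and by 1.26 ± 0.20 at the wild type base (adjusted p = 0.00043). SOL1, a relative of TSO1, fell in wild type, at -0.63 ± 0.21 (adjusted p = 0.0295), and had -0.53 ± 0.21 in cov (adjusted p = 0.0786). KEU, which acts in membrane fusion at the cell plate, was the 1 tested gene of the cytokinesis list and rose at the base by 0.75 ± 0.15 in cov (adjusted p = 0.00372) and 0.95 ± 0.15 in wild type (adjusted p = 0.000467). The other gene of that list, the phragmoplast kinesin gene KINESIN-12B, was too dim to be tested. It had 8.3 and 6.7 at cov bases against 37.3 and 38.3 at cov tips, and 7.3 and 1.9 at wild type bases against 43.1 and 22.5 at wild type tips, so that its base arrays lay below its tip arrays in both genotypes. ATMAP65-6, a gene for a microtubule-associated protein, was no member for its first letters. It rose 2.26-fold at the cov base (adjusted p = 0.000653) and 3.1-fold at the wild type base (adjusted p = 3.16e-05). Of the 5 genes whose synonyms alone carry one of the stems, PRL, ATMAP65-6, HBT, CHR24 and cdc2cAt, 1 rose, 1 fell and 3 were not called in cov, and 1 rose, 2 fell and 2 were not called in wild type. CHR24 had -0.13 ± 0.25 in cov and -0.34 ± 0.25 in wild type (adjusted p of 0.736 and 0.295), and cdc2cAt 0.73 ± 0.41 and 0.15 ± 0.41 (adjusted p of 0.216 and 0.802). ARL, a gene for organ growth by cell expansion, was the 1 gene of the list on growth regulators and rose 2.09-fold in cov (adjusted p = 0.00686) and 1.84-fold in wild type (adjusted p = 0.0124). None of these genes was called between cov and wild type in either part.

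**Figure D5:**
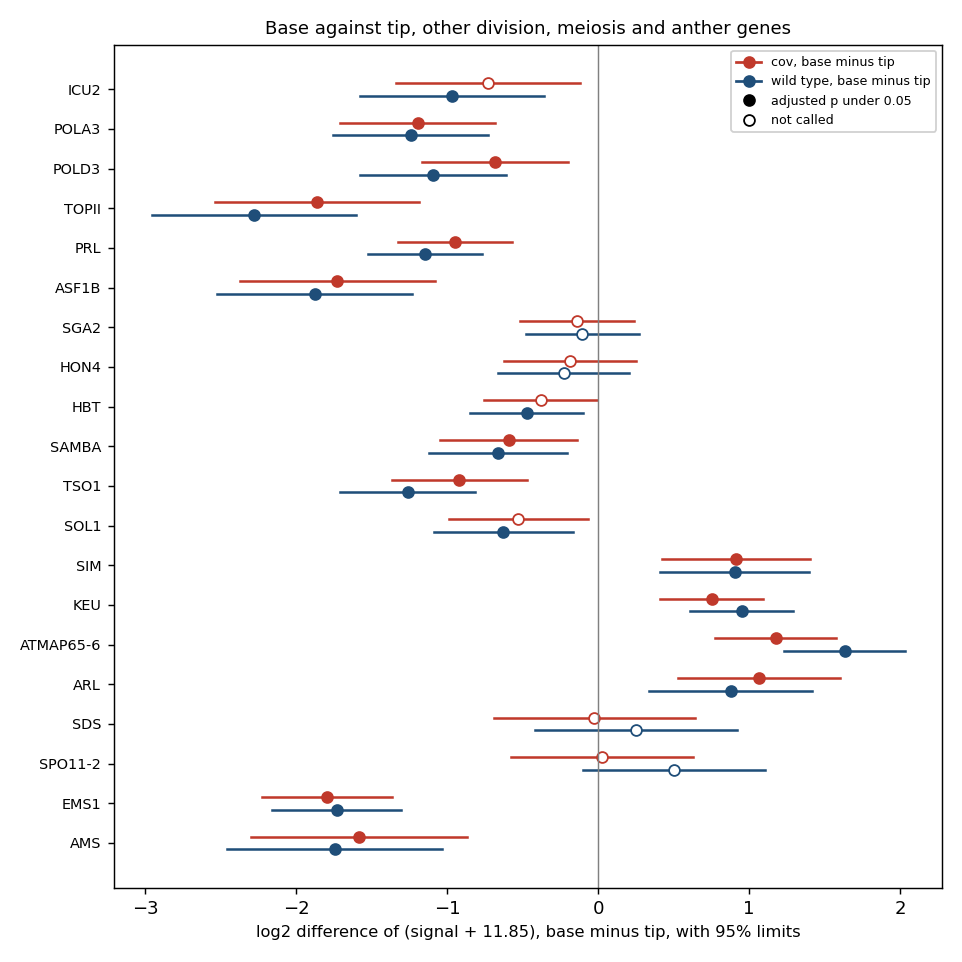
Log2 difference of the signal plus 11.85, base minus tip, for 20 other genes of replication, histone handling, division, meiosis and anthers in cov (red) and wild type (blue), with 95% limits from limma. Filled points are called. Replication genes lie below 0, as do the anther genes EMS1 and AMS, and SIM, KEU, ATMAP65-6 and ARL lie above it in both genotypes.

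Anther genes with a named probe set were also lower at the base, and the amount of flower tissue was not measured. Among all tested probe sets 15.8% fell at the cov base and 24.4% at the wild type base. The list of anther and pollen genes had 3 named genes, whose summed signal ran from 37.6 to 40.7 at cov bases against 165.4 to 203.9 at cov tips, and from 36.7 to 42.9 at wild type bases against 191 to 201.9 at wild type tips. Both tested genes of that list fell, EMS1 3.47-fold at the cov base (adjusted p = 6.61e-05) and 3.32-fold at the wild type base (adjusted p = 3.54e-05), and AMS, a tapetum regulator, 3.00-fold at the cov base (adjusted p = 0.00365) and 3.35-fold at the wild type base (adjusted p = 0.00115). The summed signal of 4 meiosis genes was 59.4 to 65.8 at cov bases against 57.6 to 78.8 at cov tips, and 72.3 to 110.4 at wild type bases against 50.3 to 84.9 at wild type tips. Of these 2 were tested and 0 were called in either genotype by limma, nor at an unadjusted p under 0.05. The mean signals were low, at 10.11 for ATSPO11-1, 11.22 for RCK, 21.49 for SDS and 29.61 for SPO11-2. The limit for testing was 21.36, and at such signals the sum cannot show whether meiotic tissue differed between the parts. No marker of either list was at 0 on any array, but only 91 values of the whole table were, so this does not show expression. EMS1 gave most of the anther sum at the tips of both genotypes, and SPL, too dim to be tested, gave the least. The part of flower tissue in the gradient of the H2B, Aurora and BUB genes was not tested. The secondary wall genes moved against it, with a summed signal of 3 genes from 1235.2 to 1759.2 at cov bases against 224.9 to 228.4 at cov tips, and from 2315.5 to 2902.4 at wild type bases against 170.2 to 189.3 at wild type tips.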

How the data were processed

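Per the submitters' processing notes the deposited values are MAS5 signal intensity, which the table holds per probe set and unlogged. The MAS5 version is not given in the sources used here. After trimming 2% of the probe sets at either end, the arrays shared a mean signal of 100.01, and no further scaling was done. Of 22810 probe sets 64 controls were left out, as were 6823 with a mean signal over the 8 arrays below 21.36, the 30th percentile, which left 15923. The deposited signals plus 11.85, 0.25 of the table median of 47.4, were put on the log2 scale. Gene names came from the array annotation and TAIR10.1 RefSeq.

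Group means were fitted with limma 3.58.1 in R 4.3.3 (lmFit, eBayes with a variance trend, 4 residual degrees of freedom). P-values are two-sided, adjusted by Benjamini-Hochberg over all tested probe sets within each contrast, and the threshold is 0.05. The fit was tested on simulated arrays, with changes put into brighter probe sets at the cov tip. Against the wild type tip it called 10% of 1.5-fold, 48% of 2-fold, 88% of 4-fold and 100% of 8-fold changes. The number of arrays limits the precision. Nothing in the labels says whether replicates were separate plants, so p-values measure the spread between these samples, which may be technical.

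Members and lists were chosen with earlier results of these data known. Named genes are all members, those called with full values, and the list genes of each role. PS1, a presenilin gene that shares its symbol, was taken out of the meiosis list, and PRL, ATMAP65-6, HBT, CHR24 and cdc2cAt were grouped through RefSeq synonyms after the annotation was seen. Replicate numbers were not taken to pair arrays, since deviations of same-numbered arrays correlated at -0.043 to 0.162 between groups. Promoter motifs were not searched and no sequence is printed here. Alternatives were other pseudocounts, filters and scalings, no variance trend, a replicate block, fewer arrays and leaving out each array.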

Additional observations from a re-analysis of the deposited data

Results flagged for a closer look

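The xylan gene IRX15, given above as a check of the stem parts, stood less far above its tip level at the cov base than at the wild type base, 8.42-fold against 23.1-fold. The difference of the gradients was -1.46 ± 0.30 on the log2 scale by limma (adjusted p = 0.0364). None of the 13 tested members differed in this way. Groups of 2 arrays are too small to be searched for single outlying arrays.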

How the results depend on the processing

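The counts of members called at the tip, at the base and in the difference of the gradients were 0 under every alternative run. In cov the count of 7 ranged from 4 (without cov tip array 1) to 9 when single arrays were left out, and was 8 with the replicate block or with a pseudocount of the table median and 9 with only the arrays compared. HTR12 and AUR2 were the members added at 9, which was also the count when either wild type base array was omitted. In wild type it ranged from 9 to 9 over omitted arrays, where without wild type base array 2 RAD4 lost its call and HTR12 gained one, and from 7 to 11 over the others, with 7 members tested under a filter at the 50th percentile and 16 with no filter. Of 351 recomputed values of 21 named differences, 339 kept their side of the threshold, 7 lost the call and 5, all of HTR12 in cov, gained it, and 0 changed sign. Omitting an array leaves 1 array in a group, which is assumed to vary like the others. Median centring gave all tested probe sets a median log2 difference of 0.107, against -0.014 without it, for wild type base minus tip, where the same 9 members were called, and 396 higher and 388 lower calls at the base, against 545 and 336. The pseudocount of the table median drew differences toward 0 by its construction. In the replicate block the tip, base, cov gradient, wild type gradient and difference had 0, 0, 8, 9 and 0 members called. The counts over all tested probe sets moved by more than 1.5 times, for example at the base from 881 to 440 without wild type base array 1, at the tip from 290 to 116 without cov tip array 1, in the difference of the gradients from 342 to 111 without cov tip array 2 and to 139 with no filter, and in the cov gradient from 4978 to 2870 without cov tip array 1. The arrays' number limits all of these values.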
